A study of Homo sapiens with 18 samples.

Results

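The elements described here are the genomic copies of 8 young LINE-1 (L1) subfamilies, L1HS and L1PA2 to L1PA8, in 2 deposited tables of read counts per repeat copy. A row was taken when its repeat name was exactly one of these 8 names. This gave 63590 of the 2404193 copies in the table with the 5-FU libraries and 62143 of the 1996647 copies in the table with the Nutlin libraries, with 61956 copies in both. Copies whose end minus start was 5500 bases or more were called near full-length, and all others truncated; each table held 7247 near full-length copies, beside 56343 truncated copies among the 5-FU libraries and 54896 among the Nutlin libraries. The study measured total RNA of wildtype IMR90 cells, a lung fibroblast line, and its title ties repeat expression to the tumour suppressor p53. Cells received 5 µM Nutlin for 6 h, or 375 µM 5-FU for 6, 12 or 24 h, and each drug and time had its own DMSO group, given the volume of the drug. An untreated group had its medium changed 12 h before extraction. Each group had 2 libraries, and the labels do not say that these came from separate cultures, so p-values measure only the spread between these libraries. The tables list repeat copies and no genes, so the fibroblast label was not checked against marker genes.

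L1 is an autonomous retrotransposon: a full-length element carries an internal promoter in its 5′ untranslated region and 2 reading frames, the RNA-binding protein ORF1p and the endonuclease and reverse transcriptase ORF2p, and it copies itself through RNA. L1HS is the human-specific subfamily that is still mobile, and L1PA2 to L1PA8 are successively older primate subfamilies whose copies have had more time to diverge from each other. Most copies were cut short at their 5′ end when they inserted, lack the promoter, and can appear in RNA as passengers of other transcripts. Nutlin frees p53 from its inhibitor MDM2, and 5-FU is a fluorinated pyrimidine that blocks thymidylate synthase and enters RNA. DMSO is the solvent.

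Positions in the consensus show how complete the copies are. Of the near full-length copies, 6720 (92.7%) began within the first 200 bases of their subfamily's consensus sequence, against 4.2% of the truncated copies in either table, while 80.7% of the truncated copies in either table reached position 6000 or beyond at the 3′ end. At the length limit itself, the 5-FU table had 173 copies just under and 234 just over 5500 bases. Of these, 98 and 129 had a count, and the median total was 1.0 on both sides. The largest totals were 681 just under and 11551 just over. The latter was the L1PA5 copy on chromosome 19 named below, which held 14.8% of the near full-length L1PA5 counts. The L1PA5 split thus depends on where the limit lies, and levels at another limit were not computed.

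Libraries of the 5-FU table held 2412334 to 6290320 counts, fewest in the DMSO 12 h group. Those of the Nutlin table held 9109885 to 11880265, of which 7SL RNA took 61.7% to 67.9%, against 3.59% to 12.5% for 5-FU. Counts outside ribosomal, transfer and other structural RNA therefore ran from 1618055 to 4164168 per library with the 5-FU set and from 1787724 to 2474410 with the Nutlin set. By their column headers, the untreated samples are the same in both tables. Untreated replicate 1 had 3481300 counts with 5.33% 7SL in the 5-FU table, and 9669973 with 61.7% in the Nutlin table. Outside structural RNA it had 2435957 and 2474410 counts. The 7SL gap is thus also present for 1 sample counted in both tables, and its cause was not tested. Levels were compared within a table only. The Nutlin table differs in 1 more way. Its untreated group appears there as 2 columns with the same values in every row, which count as 1 library here.

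Young L1 RNA made up a small share of these fibroblasts' repeat RNA. Summed over copies, the near full-length class of L1HS, L1PA2, L1PA5 and L1PA6 carried more of it per length than the truncated class, by the median over libraries. Outside structural RNA, the 8 subfamilies accounted for 1.69% to 3.05% of counts across the 5-FU libraries and for 1.86% to 2.39% across the Nutlin libraries. With 5-FU, 18094 copies (28.5%) had at least 1 count in any library, against 58.4% of all repeat copies. The share was 56.9% for near full-length and 24.8% for truncated copies, and for the Nutlin libraries it was 38.1% and 15.4%. A longer copy has more positions at which a read can fall, so these shares are not levels.

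Levels were therefore set per length, as CPM (library-scaled counts) outside structural RNA, divided by the annotated length of the copies in kb. L1HS showed the widest gap between its length classes: in the 5-FU table the median over 14 libraries was 0.409 for the 316 near full-length copies and 0.091 for the 1175 truncated ones. For L1PA2 these medians were 0.225 and 0.116. Near full-length copies were also above truncated ones in L1PA5 (0.315 and 0.211) and L1PA6 (0.336 and 0.251). In L1PA6 this did not hold in every library: the lowest near full-length value was 0.192 and the lowest truncated one 0.225. The near full-length and truncated medians were 0.232 and 0.217 for L1PA3, and 0.172 and 0.208 for L1PA4. They were 0.229 and 0.237 for L1PA7, and 0.171 and 0.192 for L1PA8. In the older primate subfamilies L1PA10 to L1PB4 they were 0.162 and 0.216. The share of near full-length copies with a count fell in the order of age, from 85.8% in L1HS to 39.5% in L1PA8 with 5-FU, though L1PA7 (49.8%) stood above L1PA6 (49.1%), and in the Nutlin libraries L1HS had 62.7% and L1PA8 29.5%.

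**Figure D1:**
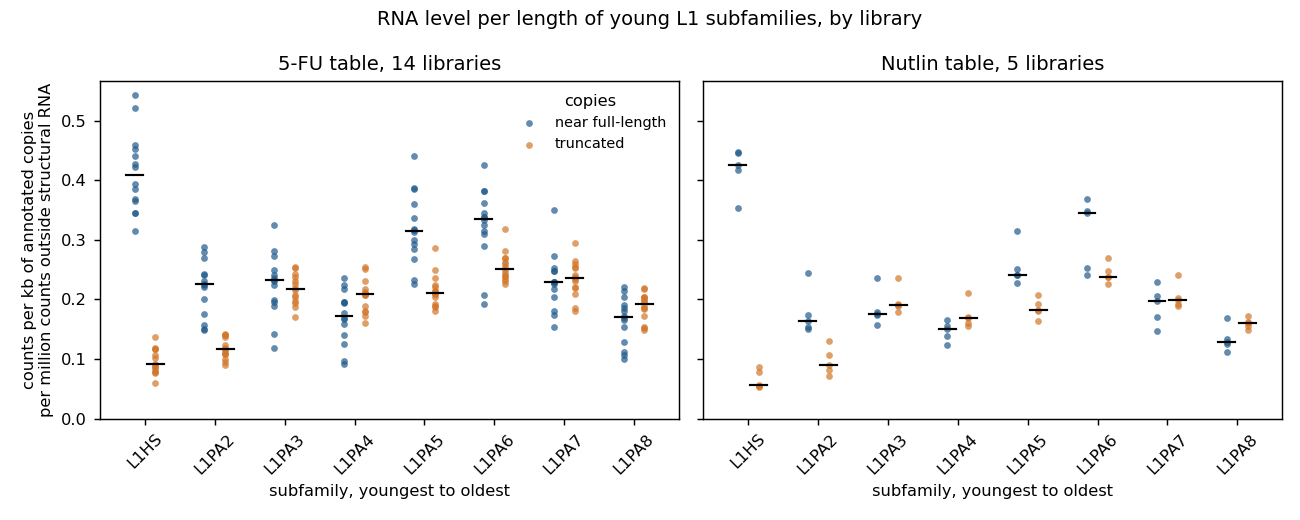
CPM outside structural RNA per kb of annotated copies for each subfamily, split into near full-length (blue) and truncated (orange) copies. Each point is 1 library and black bars are medians; in the 5-FU table the L1HS classes stand apart (0.409 and 0.091), while those of L1PA3 lie close together (0.232 and 0.217).

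A small part of the loci carried most of this RNA. Among the 5-FU libraries, 329 copies held 50% of the young L1 counts and the top 10 held 10.2%. Among the Nutlin libraries, 294 copies did so and the top 10 held 11.2%. Among near full-length copies, the most abundant copy held 22.0% of the L1PA7 counts, 19.1% of the L1PA6 counts, 14.8% of the L1PA5 counts and 10.6% of the L1HS counts in the 5-FU table. Both tables had the same most abundant copies, all near full-length, of L1PA2 (chromosome 5, 64459845 to 64465875), L1PA5 (chromosome 19, 12017070 to 12022645) and L1PA6 (chromosome 12, 46583732 to 46589869); all positions here are on hg19. The L1PA5 copy had 738 and 646 counts in untreated cells, and 542 to 1105 in the other 12 libraries of the 5-FU table. The most abundant L1PA4 copy was a truncated one on chromosome 4 (81211695 to 81213240) that held 22.6% of the truncated L1PA4 counts.

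Single near full-length copies of the youngest subfamilies often had counts in 1 replicate and none in the other. Among L1HS copies and groups with at least 10 counts in either replicate, the other replicate stood at 0 in 170 of 350 cases (48.6%) with the 5-FU libraries and in 50 of 84 (59.5%) with the Nutlin libraries. The share fell with age: in the 5-FU table it was 32.8% for L1PA2, 12.8% for L1PA3, 6.3% for L1PA4, 3.7% for L1PA5, 1.9% for L1PA6 and for L1PA7, and 0 for L1PA8. Other copies outside structural RNA showed it in 3.4% of cases, and the older primate L1 copies in 4.5%. With at least 30 counts in 1 replicate, L1HS stood at 38.1% and L1PA2 at 14.7%, and none of the L1PA5 to L1PA8 cases was left. Summed over copies the libraries lay closer together: near full-length L1HS had 670 and 542 CPM (scaled here and below by the trimmed mean of M-values, TMM) in the DMSO 6 h libraries and 594 and 570 in the 5-FU 6 h libraries. How reads that match several near-identical copies were placed is not given in the sources used here, and its part in these zeros was not tested.

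**Figure D2:**
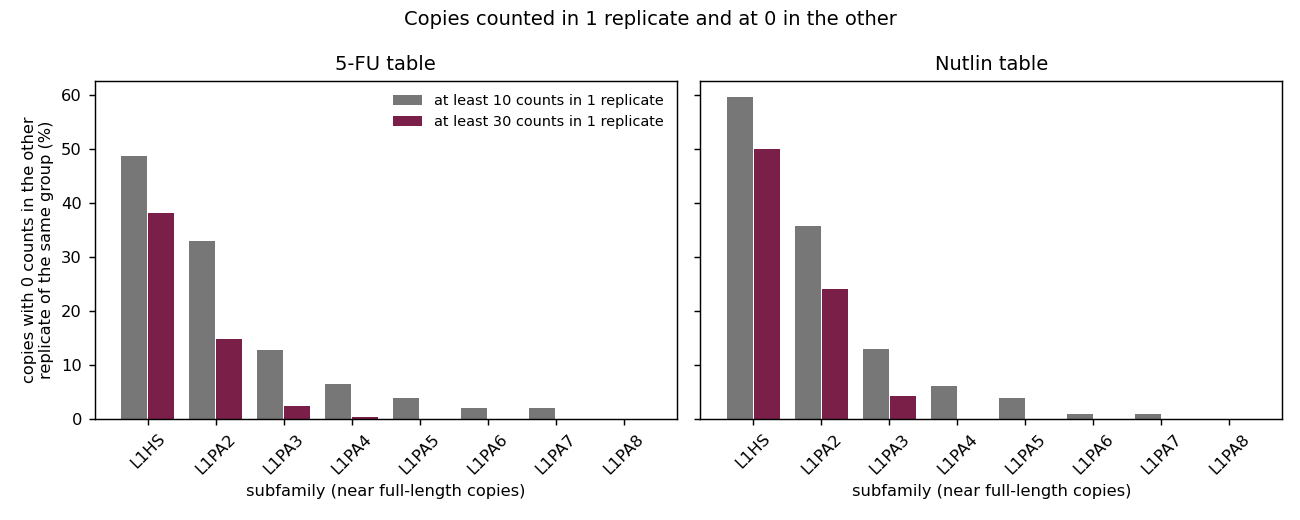
Share of cases, each a near full-length copy in a group, with at least 10 (grey) or 30 (purple) counts in 1 replicate and 0 in the other. In both tables the bars fall from L1HS (48.6% and 59.5% at 10 counts) through L1PA2 to values near 0 in the oldest subfamilies.

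A set of L1PA5 copies on chromosome 16 held a called copy, while the groups overlapped in the sum over the set. It was chosen after its values were seen, and how reads were placed among its copies was not tested. In all, 6 truncated copies there span the same consensus positions, 4623 to 6153. The copy at 21881055 to 21882582 had 108 and 77 counts in the DMSO libraries of the Nutlin table and 0 in both Nutlin libraries, at least 31.4-fold lower against a floor of 3 counts per library, with adjusted p = 1.11e-05 (edgeR quasi-likelihood test, Benjamini-Hochberg). The copy at 22511231 to 22512758 had 0 in both DMSO libraries and 0 and 127 in the Nutlin libraries. Summed over the 6 copies, the counts were 124 and 98 with DMSO and 18 and 152 with Nutlin, and the groups overlapped. In the 5-FU table the same pair had 376 and 10 against 0 and 222 counts in the DMSO 6 h libraries, and 1 and 528 against 114 and 1 in the 5-FU 24 h libraries. Called copies with at least 10 counts in 1 replicate of any group and 0 in the other were also counted. Among near full-length L1HS copies these were 0 of 4 after Nutlin, 1 of 2 at 5-FU 6 h, 9 of 10 at 12 h and 5 of 7 at 24 h. Among near full-length L1PA2 copies they were 1 of 11 after Nutlin and 4 of 17 at 5-FU 12 h. Among all called young L1 copies they were 1 of 98 after Nutlin, and 1 of 4, 28 of 318 and 10 of 107 at the 5-FU times. The Nutlin table has fewer groups with 2 libraries in which a copy can show this, so these counts cannot be compared between the tables. The matching counts over all called repeat copies were not computed, so these counts have no background beside them.

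After 6 h of Nutlin the sums of L1HS and L1PA6 were higher than with DMSO. L1HS had 184 and 159 CPM with DMSO and 211 and 206 with Nutlin, a log2 fold change of 0.28 (SE 0.09, adjusted p = 0.0316). L1PA6 had 567 and 553 CPM with DMSO and 706 in both Nutlin libraries, a log2 fold change of 0.33 (SE 0.08, adjusted p = 0.00199). The drug libraries were above the DMSO libraries without overlap in both. These were 2 of 8 subfamilies called, against 12.7% of all 1028 repeat names tested (9.63% higher and 3.11% lower). Scaled to the library size alone, the median of all names moved from 0.07 to -0.11, L1HS and L1PA6 had 0.11 and 0.16 and were not called, and L1PA2 and L1PA5 were called lower instead (-0.32 and -0.17). Without the most abundant copy of each name L1PA6 had 0.16 (adjusted p = 0.36) and L1HS 0.31 (adjusted p = 0.14), and DESeq2 did not call L1HS either (adjusted p = 0.079). Neither subfamily stayed called without DMSO replicate 2 or without Nutlin replicate 1, and 1 did without Nutlin replicate 2.

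Split by length, 4 of 16 classes were called after Nutlin, all higher, against 12.9% of all 1036 sums tested (9.75% higher). Scaled to the library size alone 8 were called, 3 higher and 5 lower, and with DESeq2 size factors 5 higher and 1 lower. Near full-length L1PA6 went from 273 and 261 CPM to 406 and 399 (log2 fold change 0.59, SE 0.08, adjusted p = 2.28e-07), while truncated L1PA6 had 294 and 292 against 299 and 307 (0.05, adjusted p = 0.80). Near full-length L1PA7 went from 217 and 188 to 282 and 252 CPM (0.40, SE 0.09, adjusted p = 0.00109), and near full-length L1PA4 from 242 and 215 to 283 and 271 (0.28, SE 0.09, adjusted p = 0.0255). The difference between the length classes was not tested. Truncated L1HS went from 15.9 and 16.5 to 25.6 and 25.9 CPM (0.66, SE 0.15, adjusted p = 0.000745). None of the 4 pairs of groups overlapped. With the most abundant copy of each name or class left out, near full-length L1PA6 had 0.31 (adjusted p = 0.13), L1PA7 0.21 (adjusted p = 0.39) and L1PA4 0.27 (adjusted p = 0.17), and none of these was called. Near full-length L1PA4 was also not called with the library size alone (0.10, adjusted p = 0.35), nor truncated L1HS with the length limit at 6000 bases (0.43, adjusted p = 0.063). Of the 4 classes, 1 (near full-length L1PA6) stayed called without Nutlin replicate 1 and also without replicate 2, and 2 without DMSO replicate 2.

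The near full-length share of young L1 counts was 47.8% and 47.7% with Nutlin and 44.9% and 42.2% with DMSO. The groups did not overlap, and 2 libraries against 2 cannot give an exact two-sided permutation p below 0.333.

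Among single copies, 98 of the 731 tested were called after Nutlin (13.4%), against 9.57% of all 21328 repeat copies tested. Of these 50 rose and 48 fell, against 5.36% and 4.21% of all copies, a split that became 31 and 61 when scaled to the library size alone. Near full-length copies gave 32 risen and 26 fallen of 384 tested, and truncated copies 18 and 22 of 347. The median log2 fold change of the tested young L1 copies was 0.10, beside 0.01 for all copies. The older primate L1 copies had 39 called of 336. DESeq2 called 37 young L1 copies.

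The most abundant locus of the L1PA6 sum was the near full-length copy on chromosome 12 (46583732 to 46589869). It had 563 and 675 counts with DMSO, 1656 and 1269 with Nutlin, and 1157 in the untreated library. Its log2 fold change was 1.19 (SE 0.10, adjusted p = 2.2e-05), and the drug libraries were higher without overlap. The most abundant near full-length L1PA7 copy of that table (chromosome 1, 92853960 to 92860042) went from 312 and 374 to 872 and 574 counts (1.01, SE 0.11, adjusted p = 0.000185). Another near full-length L1PA7 copy, on chromosome 12 (105401335 to 105407760), went from 117 and 121 to 308 and 212 (1.06, SE 0.14, adjusted p = 0.00058).

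Falls after Nutlin included abundant copies as well. The truncated L1PA4 copy on chromosome 4 (81211695 to 81213240) had 644 and 728 counts with DMSO and 307 and 163 with Nutlin (log2 fold change -1.63, SE 0.14, adjusted p = 2.16e-05). The near full-length L1PA5 copy on chromosome 19 (12017070 to 12022645) went from 511 and 502 to 378 and 293 (-0.65, SE 0.11, adjusted p = 0.00276). A truncated L1PA2 copy on chromosome 18 (26730571 to 26732903) went from 63 and 66 to 12 and 7 (-2.81, SE 0.30, adjusted p = 0.000105), and a truncated L1PA3 copy on chromosome 1 (11143681 to 11146601) from 216 and 241 to 123 and 89 (-1.17, SE 0.14, adjusted p = 0.000368). In each case both Nutlin libraries lay below both DMSO libraries.

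Of the near full-length L1HS copies, 18 were tested after Nutlin; 3 rose and 1 fell. The copy on chromosome 10 (6411598 to 6417629) had 4 and 3 counts with DMSO and 113 and 190 with Nutlin, with adjusted p = 5.27e-05. In the 5-FU table the same copy ranged from 0 to 239 counts, with 99 and 239 in the DMSO 6 h libraries and 8 and 0 in the DMSO 12 h libraries. The copy on chromosome 1 (184814751 to 184820775) stood at 0 in the untreated and both DMSO libraries and at 107 and 141 with Nutlin, at least 41.5-fold higher against a floor of 3 counts per library (adjusted p = 2.26e-05). Its counts in the 5-FU table were 0 in 10 of 14 libraries and 2, 8, 11 and 25 in the others. A near full-length L1PA2 copy on chromosome 20 (52120391 to 52126413) went from 2 and 0 to 76 and 39 counts (adjusted p = 0.00024).

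After 6 h of 5-FU very few young L1 copies differed from DMSO. Of 2340 tested, 4 were called, 3 higher and 1 lower, against 0.101% of all 63602 copies tested (0.0896% higher and 0.011% lower), and none of the 8 subfamilies or 16 length classes, as for all repeat names and sums (0 of 1078 and 0 of 1086) by edgeR. At an unadjusted p under 0.05 there were 0 of 8 subfamilies and 0 of 16 classes, and DESeq2 also called 0 of each. A truncated L1PA4 copy on chromosome 1 (85564991 to 85566815) had 4 and 3 counts with DMSO and 65 in both drug libraries (log2 fold change 4.16, SE 0.51, adjusted p = 0.000353). A truncated L1PA7 copy on chromosome 3 (178701164 to 178703748) went from 18 and 14 to 61 and 78 counts (2.10, SE 0.34, adjusted p = 0.00865). Both groups were apart in each.

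The other 2 calls at 6 h were near full-length L1HS copies, and each had nearly all its counts in 1 library. The copy on chromosome 4 (80858870 to 80864900) stood at 0 in both DMSO libraries and at 5 and 314 counts with 5-FU (adjusted p = 0.0371). Its 5-FU mean was 50.2-fold above the floor of 3 counts per library. That value rests on the library with 314 counts and is no lower bound. The copy on chromosome 11 (78388818 to 78394847) had 31 and 385 counts with DMSO and 0 in both 5-FU libraries (adjusted p = 0.0199). Its DMSO mean was 67.3-fold above that floor, which rests mostly on the library with 385 counts and is no lower bound. Without DMSO 6 h replicate 2 its fitted log2 fold change went from -10.5 to -7.80. DESeq2 called neither (adjusted p = 0.28 and 0.79).

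At 12 h of 5-FU the young L1 share was the lowest of the 5-FU table, and outside L1HS the near full-length sums had the lower fold changes. The difference between the length classes was not tested. The 8 subfamilies held 1.78% and 1.69% of counts outside structural RNA with 5-FU, against 2.55% and 2.33% with DMSO. Near full-length copies held 41.3% and 40.3% of the young L1 counts with 5-FU and 49.9% and 47.8% with DMSO. In both measures the 5-FU 12 h libraries were the lowest of all 14, and the groups did not overlap (exact two-sided permutation p = 0.333, the smallest that 2 against 2 allows). The DMSO 12 h libraries are the shallowest of the table, and 7SL took 10.6% and 12.5% of their counts; the part of either in these differences was not tested.

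**Figure D3:**
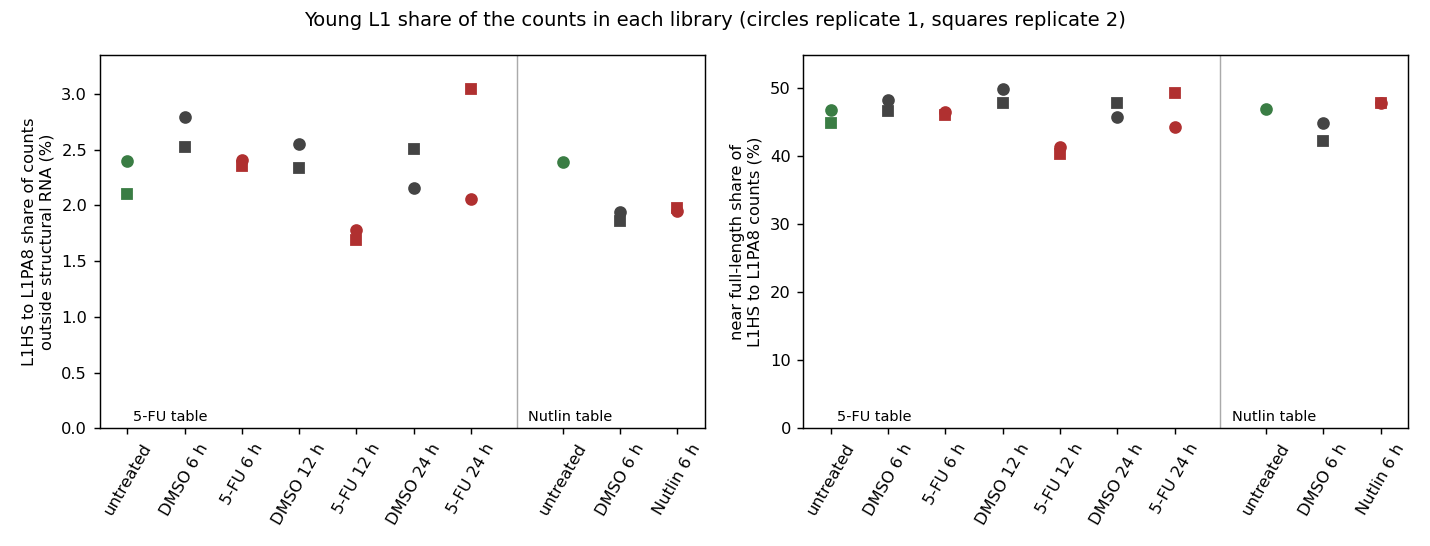
Share of the 8 subfamilies among counts outside structural RNA (left) and share of near full-length copies among their counts (right), by library; green is untreated, grey DMSO and red drug. Both 5-FU 12 h libraries (1.78% and 1.69%, 41.3% and 40.3%) lie below all others of the 5-FU table, and the 5-FU 24 h libraries lie far apart (2.06% and 3.05%).

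Of 16 length classes, 3 were called at 12 h, all near full-length and all lower, against 33.8% of all 1086 sums tested (28.3% higher and 5.52% lower). Near full-length L1PA4 went from 916 and 830 CPM with DMSO to 512 and 484 with 5-FU, a log2 fold change of -0.81 with an SE of 0.20 (adjusted p = 0.00745). L1PA3 went from 1286 and 1074 to 835 and 699 (-0.62, SE 0.19, adjusted p = 0.0230), and L1PA6 from 993 and 892 to 675 and 629 (-0.53, SE 0.14, adjusted p = 0.00898). No pair of groups overlapped. Truncated L1PA4 had 1094 and 1102 against 1133 and 1058 CPM (0.00, adjusted p = 0.98), and near full-length L1HS 415 and 380 against 420 and 385 (0.02, adjusted p = 0.94). Truncated L1HS lay below its near full-length class, with -0.11 (adjusted p = 0.74). Left out in turn, DMSO 12 h replicate 1 and 5-FU 12 h replicate 2 each took all 3 calls away, with L1PA4 at -0.74 (adjusted p = 0.054) and -0.87 (adjusted p = 0.066). Without the most abundant copy near full-length L1PA6 had -0.39 and was not called (adjusted p = 0.11). These sums were scaled by TMM factors over all copies, and the single copies by factors over the tested copies only. On the latter scale 7 classes were called, all lower, near full-length L1PA4 had -1.05 (adjusted p = 0.00284), truncated L1PA4 -0.25 (adjusted p = 0.16) and near full-length L1HS -0.22 (adjusted p = 0.31).

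As whole sums, none of the 8 subfamilies was called at 12 h, against 33.8% of all 1078 repeat names (28.5% higher and 5.29% lower), and none had an unadjusted p under 0.05. That count depended on the scaling. The median log2 fold change of all names was 0.17 with the factors used here, -0.07 with those of the tested copies, -0.11 with DESeq2 size factors and -0.40 with the library size alone, and 5, 5 and 8 of the 8 young subfamilies were then called lower. The young subfamilies had a lower median than all names, by -0.33 in each of the 4 cases. A change of scaling moves all names by nearly the same amount. This distance could therefore hardly have changed, and its sameness is no separate check.

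**Figure D4:**
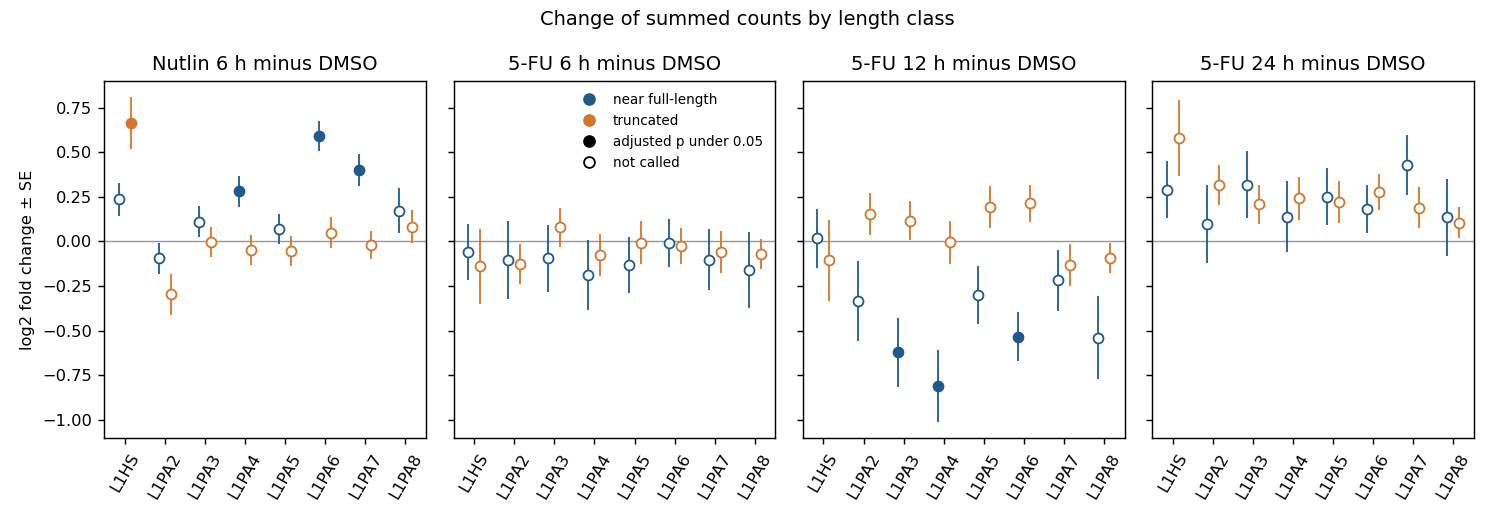
Log2 fold change with its SE of near full-length (blue) and truncated (orange) sums in the 4 drug comparisons; filled points had adjusted p under 0.05. Near full-length L1PA3, L1PA4 and L1PA6 are lower at 5-FU 12 h (-0.62, -0.81 and -0.53), and L1PA6 near full-length is higher with Nutlin (0.59); with the library size alone as the scale, all points of the 12 h panel lie lower, and near full-length L1HS and truncated L1PA2 and L1PA3 change sign to a called fall.

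Copy by copy, 318 of 2340 were called at 12 h (13.6%), against 9.71% of all 63602 copies. Of these 89 rose and 229 fell, against 5.44% and 4.27% of all copies, and with the library size alone the split was 52 and 324. Near full-length copies gave 23 risen and 156 fallen of 1102, and truncated copies 66 and 73 of 1238. The median log2 fold change was -0.92 for near full-length and -0.36 for truncated copies, beside -0.04 for all copies tested. By subfamily, the fallen near full-length copies numbered 39 of 221 in L1PA3, 27 of 188 in L1PA4, 25 of 171 in L1PA5, 22 of 123 in L1PA6 and 20 of 129 in L1PA7, with 4 risen in L1PA3, 5 in L1PA5 and at most 2 in each of the other 3. L1PA2 had 4 risen and 13 fallen of 161, with a median log2 fold change of -0.25. L1PA8 had 1 risen and 5 fallen of 23, with a median of -0.81. L1HS had 5 risen and 5 fallen of 86; 9 of these 10 had at least 10 counts in 1 replicate of some group and 0 in the other, and the groups compared did not overlap in 5. The difference between subfamilies was not tested. The older primate L1 copies had 143 called of 1360 and a median of -0.86, so the older subfamilies had a low median at 12 h as well. Leaving out 1 library at a time left 122 to 173 young L1 copies called.

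Of the near full-length copies, the smallest p at 12 h was that of an L1PA4 copy on chromosome 5 (136753493 to 136759608). Its DMSO 12 h libraries had 89 counts each, and the 5-FU libraries 6 and 2, a log2 fold change of -4.81 (SE 0.44, adjusted p = 7.31e-07). At 24 h it had 35 and 51 counts with DMSO and 28 and 26 with 5-FU, and untreated cells had 9 and 10. An L1PA3 copy on chromosome 6 (79681233 to 79687246) went from 56 and 34 counts to 0 in both libraries, at least 19.3-fold lower against the floor of 3 counts per library (adjusted p = 4.63e-05). An L1PA4 copy on chromosome 11 (132190055 to 132196077) went from 136 and 103 to 18 and 39 counts (-2.43, SE 0.32, adjusted p = 6.3e-05), and its 24 h libraries had 118 and 95 with DMSO and 78 and 74 with 5-FU.

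The most abundant L1HS copy, near full-length on chromosome 13 (49039692 to 49045702), had unusual values in 1 control group. At 12 h it had 156 and 164 counts with 5-FU and 2 and 43 with DMSO, and it was called higher, with a log2 fold change of 2.45 (SE 0.69, adjusted p = 0.0273). Every other DMSO or untreated library of the table had 199 to 381 counts. Against the mean of the DMSO 6 h and 24 h groups its log2 fold change was -0.43 (adjusted p = 0.59). In the Nutlin table it had 208 and 189 counts with DMSO and 217 and 202 with Nutlin.

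At 24 h of 5-FU more single copies had risen than fallen, but the replicates differed in young L1 as a whole. The young L1 share outside structural RNA was 2.06% in replicate 1 and 3.05% in replicate 2 with 5-FU, and 2.16% and 2.51% with DMSO, so the groups overlapped. All 8 subfamily sums had log2 fold changes from 0.11 to 0.33, and none was called by edgeR, against 12.1% of all 1078 names (10.9% higher and 1.21% lower). L1HS alone had an unadjusted p under 0.05 (1 of 8) and had the smallest p (553 and 506 against 573 and 759 CPM, adjusted p = 0.10). Without 5-FU 24 h replicate 1 all 8 were called higher, with a median of 0.46, and without replicate 2 none was, with a median of -0.03. None of the 16 length classes was called, against 11.8% of all 1086 sums (10.6% higher and 1.2% lower), 4 had an unadjusted p under 0.05, and DESeq2 called 0 of either kind. Without 5-FU replicate 1, 14 classes were called higher, and without replicate 2, 1 was called higher and 1 lower.

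Single copies gave 107 calls of 2340 at 24 h (4.57%), against 4.23% of all 63602 copies, a share near the background. Of these 77 rose and 30 fell, against 2.42% and 1.82% of all copies. The split was 58 and 43 with the library size alone, and 55 and 62 without 5-FU 24 h replicate 2. Near full-length copies gave 36 risen and 15 fallen, and truncated copies 41 and 15. The median log2 fold change of the tested copies was 0.05, beside 0.00 for all copies.

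Of the near full-length copies, the smallest p at 24 h was that of an L1PA5 copy on chromosome 15 (25500761 to 25506894). It had 16 and 3 counts in the DMSO 24 h libraries and 190 and 289 with 5-FU, a log2 fold change of 4.67 (SE 0.48, adjusted p = 4.22e-06). At 12 h it had 4 and 1 against 71 and 54 (4.24, SE 0.61, adjusted p = 0.000186), and at 6 h 19 and 11 against 27 and 43, which was not called (adjusted p = 0.61). The untreated libraries, by their column headers the same samples in both tables, stood at 0. A near full-length L1PA6 copy on chromosome 5 (65401782 to 65407907) went from 92 and 116 to 242 and 461 counts at 24 h (1.78, SE 0.25, adjusted p = 0.000116), and a near full-length L1PA5 copy on chromosome X (135018020 to 135024025) from 12 in both to 51 and 72 (2.40, SE 0.41, adjusted p = 0.00108). A near full-length L1PA4 copy on chromosome 18 (43374036 to 43380174) had 26 counts in each DMSO library at 24 h and 0 in each 5-FU library, at least 8.06-fold lower (adjusted p = 0.00014).

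The 12 h and 24 h calls, which rest on different libraries, shared 43 copies, 13.5% of the 318 and 40.2% of the 107, and all 43 had the same direction at both times. Over all repeat copies the shared calls were 20.7% of those at 12 h and 47.4% of those at 24 h, and 98.4% of them had the same direction. Across the tables only copies tested in both were compared, 95 of the 98 called after Nutlin. Nutlin and 5-FU 12 h shared 27 called copies, 28.4% of the 95 and 16.7% of 162, of which 14 had the same direction (51.9%). Over all repeat copies these shares were 27.7% and 14.3%, with 64.6% in the same direction. Nutlin and 5-FU 24 h shared 17, 17.9% of the 95 and 29.3% of 58, of which 14 had the same direction (82.4%), beside 23.5%, 26.5% and 86.5% over all repeat copies. The young L1 shares were not tested against those of all copies. In all 3 of these comparisons 10 copies were called, 8 of them in 1 direction throughout. The matching count over all repeat copies was not computed, so these 10 have no background beside them.

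The truncated L1PA4 copy on chromosome 1 (85564991 to 85566815) was called in all 4 drug comparisons. It had 2 to 7 counts in the 6 DMSO libraries of the 5-FU table, and 65 and 65, 94 and 103, and 72 and 114 with 5-FU at 6, 12 and 24 h; in the Nutlin table it had 4 and 5 with DMSO and 74 and 55 with Nutlin. Its log2 fold changes were 3.75 with Nutlin (SE 0.40, adjusted p = 0.000124), 4.89 at 5-FU 12 h (SE 0.53, adjusted p = 6.22e-06) and 3.74 at 24 h (SE 0.45, adjusted p = 2.41e-05). Every drug library was above every DMSO library. The truncated L1PA7 copy on chromosome 3 (178701164 to 178703748) was called in all 4 as well, with 9 and 5 against 29 and 26 counts for Nutlin (1.91, SE 0.50, adjusted p = 0.0319), 2 and 7 against 89 and 98 at 5-FU 12 h (3.99, SE 0.41, adjusted p = 3.29e-06) and 21 and 18 against 139 and 207 at 24 h (3.19, SE 0.33, adjusted p = 3.31e-06). The truncated L1PA5 copy on chromosome 3 (123568595 to 123571538) had log2 fold changes of 1.07, 2.99 and 1.83 with Nutlin and at 5-FU 12 h and 24 h. Both Nutlin calls lay near the limit. For the L1PA7 copy the call was lost with DESeq2 (adjusted p = 0.18), with no filter (0.15), with a replicate block (0.052) and without DMSO replicate 2 (0.15), and its 6 h call was lost without 5-FU 6 h replicate 2 or either DMSO 6 h replicate (adjusted p = 0.11, 0.075 and 0.27). For the L1PA5 copy the Nutlin call (adjusted p = 0.0438) was lost with DESeq2 (0.27), the library size alone (0.078), no filter (0.37), the compared libraries alone (0.061), a replicate block (0.058) and each library left out (0.076 to 0.15).

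Falls that recurred included the truncated L1PA4 copy on chromosome 2 (169723779 to 169727875). It had 191 and 232 counts with DMSO and 134 and 90 with Nutlin, then 98 and 75 against 26 and 21 at 5-FU 12 h, and 221 and 290 against 8 and 23 at 24 h. The log2 fold changes were -0.98 (SE 0.15, adjusted p = 0.00203), -2.24 (SE 0.30, adjusted p = 6.23e-05) and -4.01 (SE 0.31, adjusted p = 1.17e-07). A truncated L1PA4 copy on chromosome 11 (17360903 to 17364840) fell at both 5-FU times, from 173 and 185 to 42 and 62 counts at 12 h (-2.15, adjusted p = 6.3e-05) and from 257 and 218 to 18 and 61 at 24 h (-2.60, adjusted p = 1e-05), whereas with Nutlin it had 135 in both DMSO libraries and 214 and 162 counts (0.42, adjusted p = 0.086).

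The other 2 of these 10 copies differed in direction between the drugs. The near full-length L1PA6 copy on chromosome 12 that rose with Nutlin (1.19) had log2 fold changes of -1.32 at 5-FU 12 h (760 and 748 against 406 and 374 counts, SE 0.20, adjusted p = 0.000216) and -0.67 at 24 h (1248 and 1374 against 605 and 1000, SE 0.19, adjusted p = 0.04998, just under the limit). The truncated L1PA7 copy on chromosome 4 (87909614 to 87911314) went from 51 and 67 to 31 and 17 counts with Nutlin (-1.36, SE 0.28, adjusted p = 0.0111), from 36 and 41 to 141 and 200 at 5-FU 12 h (1.78, SE 0.28, adjusted p = 0.000334), and from 114 and 83 to 404 and 420 at 5-FU 24 h (2.15, SE 0.26, adjusted p = 2.26e-05). The difference between the drugs was not tested, since the tables were processed separately.

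**Figure D5:**
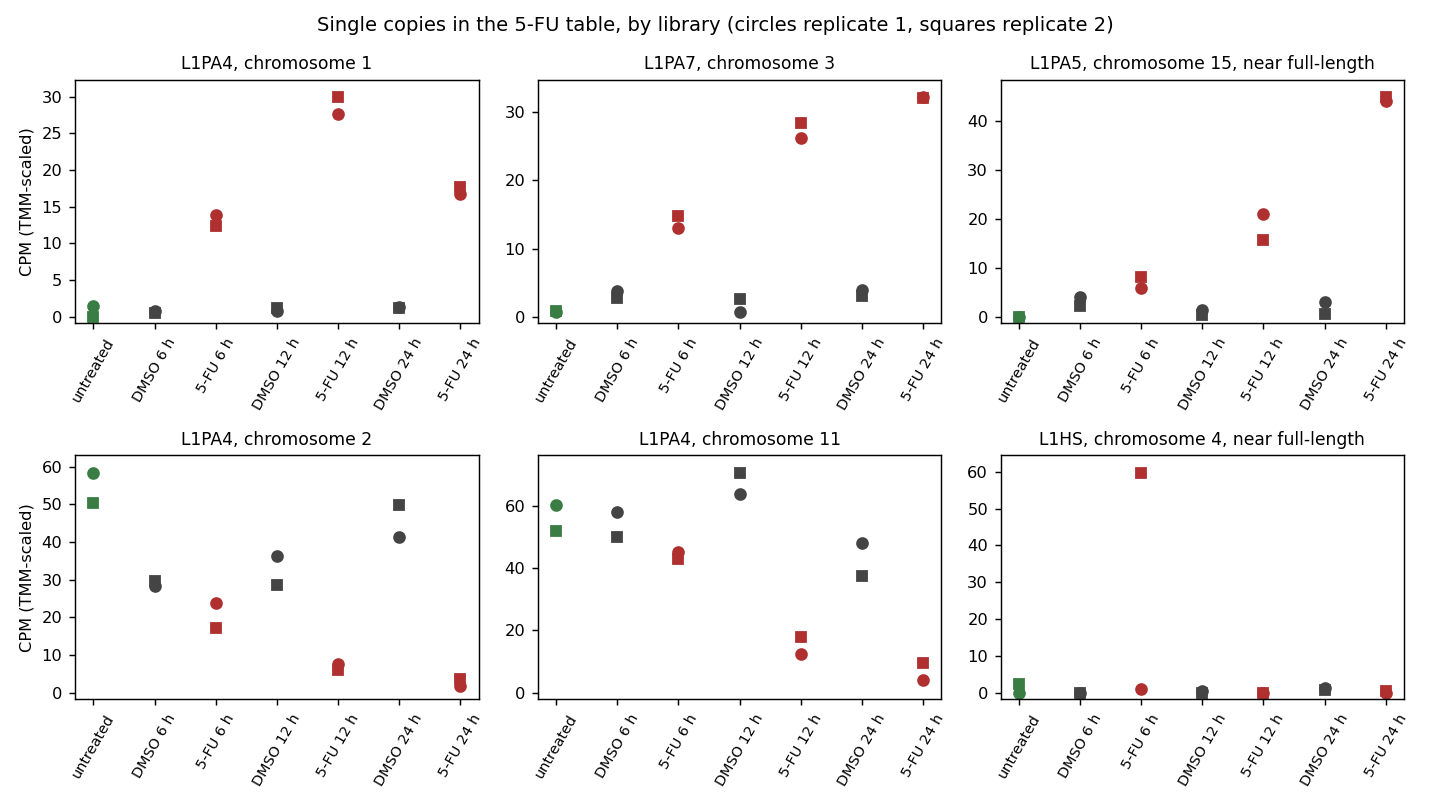
TMM-scaled CPM of 6 copies in the 14 libraries of the 5-FU table; green is untreated, grey DMSO and red 5-FU. The L1PA4 copy on chromosome 1 is high in all 6 drug libraries, the L1PA4 copies on chromosomes 2 and 11 are low at 12 h and 24 h, and the L1HS copy on chromosome 4 has 314 counts in 1 library and 0 to 8 in the others.

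Called copies were also set beside the repeats around them. For each copy, the median log2 fold change was taken over the other tested repeat copies within 10000 bases on either side, young L1 left out. Of the 49 copies risen at 5-FU 24 h with such neighbours, 46 had a neighbour median above 0, and of 22 fallen copies 19 had one below 0. Among copies not called at 24 h, 716 of 1136 (63.0%) had the sign of their neighbours. At 12 h these counts were 40 of 50 risen and 131 of 150 fallen copies, beside 664 of 1007 (65.9%) not called. After Nutlin 38 of the 98 called copies had a tested neighbour, and the counts were 14 of 18 and 15 of 20, beside 142 of 216 (65.7%) not called; among near full-length risen copies they were 6 of 10. The difference between called and other copies was not tested. At 12 h the neighbour medians of copies not called had a median of -0.59. A fallen copy was thus likely to share the sign of its neighbours whatever its call. The shares of copies not called pool both directions and include fold changes near 0. Across copies with 3 or more neighbours, Pearson's r between a copy and its neighbour median at 24 h was 0.63 for 427 truncated and 0.53 for 168 near full-length copies (Spearman's rho 0.54 and 0.53). At 6 h r was 0.26 and 0.20. These points share libraries and are not independent.

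All 9 neighbours of the L1PA7 copy on chromosome 3 at 178701164 were higher at 5-FU 24 h, with a median of 2.96 beside 3.19 for the copy, and all 14 neighbours of the L1PA4 copy on chromosome 11 at 17360903 were lower, with a median of -1.39 beside -2.60. All 6 neighbours of the L1PA4 copy on chromosome 4 at 81211695 were lower with Nutlin (median -1.45, beside -1.63). These are examples, and other named copies went against their neighbours. With Nutlin the L1PA7 copy on chromosome 4 at 87909614 had -1.36, and its 1 neighbour 2.17. The L1PA2 copy on chromosome 15 at 45890101 had -1.81 there, beside a median of 0.20 over 4 neighbours. The counts above cover all called copies with a tested neighbour. The L1PA4 copy on chromosome 1 at 85564991, called in every drug comparison, had no tested neighbour within that distance in either table. Which genes hold these copies is not analysed here, because no annotation of hg19 was used.

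The 5-FU effect at 24 h minus that at 6 h was tested directly. Of 2340 young L1 copies, 12 were called, 7 higher and 5 lower, against 0.385% of all 63602 copies (0.0865% higher and 0.299% lower). No subfamily was called by edgeR, against 1.11% of all 1078 names (0.835% higher and 0.278% lower), and no length class, against 1.1% of all 1086 sums (0.829% higher and 0.276% lower). At an unadjusted p under 0.05 there was 1 of 8 subfamilies, and DESeq2 called 0; without 5-FU 24 h replicate 1 all 8 were called higher. DMSO against untreated cells gave 45 called copies, 19 higher and 26 lower, against 1.66% of all copies (0.643% higher and 1.02% lower). DESeq2 gave 34 higher and 21 lower, the library size alone 18 and 45, and no filter 29 and 78, so the balance of directions depended on the method. None of the 8 subfamilies was called by edgeR, against 11.8% of all names (1.67% higher and 10.1% lower), with 1 at an unadjusted p under 0.05 and 1 called by DESeq2. L1PA8 had the largest subfamily difference there, with a log2 fold change of 0.22 (SE 0.08, adjusted p = 0.099), and 0.38 (adjusted p = 0.0172) with the factors of the tested copies.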

How the data were processed

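Total RNA was sequenced after library preparation with a stranded Illumina kit, per the labels' protocols. The authors deposited raw read counts per annotated repeat copy, 1 table for the 5-FU libraries and 1 for the Nutlin libraries. Trimmomatic 0.32, cutadapt 1.10, Bowtie2, edgeR, DESeq2 and the build hg19 are named, per the submitters' processing notes. The counting tool, its use of strand and its treatment of reads that match several copies are not given in the sources used here, and such reads limit every value of a single young copy. Of the untreated columns deposited beside Nutlin, 1 was identical to the other and was left out.

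Counts were tested with edgeR 4.0.16 (R 4.3.3), 1 quasi-likelihood fit per table with a mean per group, TMM scaling and a filter on low counts that did not use the untreated group in the Nutlin table. Copies were scaled by TMM factors over the copies that passed the filter. Subfamily and length-class sums used library sizes and TMM factors over all copies of a table, before the filter, so sums and single copies are not on the same scale. P-values were adjusted by the Benjamini-Hochberg method over all rows of a table, and "called" means adjusted p under 0.05. Scripts were tested on simulated data. Intervals of counting error were not used, because reads of a copy without molecular identifiers are not independent molecules. Alternatives were DESeq2 1.42.0, other scalings, no filter, fewer libraries, other controls at 12 h, a replicate block, a longer length limit, sums without their most abundant copy and, added after the data were seen, sums scaled by the factors of the tested copies.

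Copies were named by rule: per drug comparison the 5 risen and 5 fallen with the smallest p whose groups did not overlap, up to 10 called near full-length copies, and per table the 5 most abundant near full-length copies and the most abundant copy of each name. The members, lists and rules were chosen with earlier results of these data known. Figures were drawn with matplotlib 3.10.9.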

Additional observations from a re-analysis of the deposited data

Results flagged for a closer look

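The 5-FU effect at 24 h differed from that at 6 h by a direct test of the difference (edgeR, adjusted over all copies tested) at 12 young L1 copies. Differences are log2 fold change at 24 h minus that at 6 h, and counts are given as replicate 1 and replicate 2. Where a group stood at 0 the value is a fitted one and no bound.

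Of the copies with a higher effect at 24 h, 4 had counts in every DMSO and 5-FU library of both times. The near full-length L1PA5 copy on chromosome 15 (25500761 to 25506894) differed by 3.47 (adjusted p = 0.0232), with DMSO 19 and 11 and 5-FU 27 and 43 at 6 h, then 16 and 3 and 190 and 289 at 24 h. The truncated L1PA4 copy on chromosome 5 (110901287 to 110905905) differed by 3.45 (adjusted p = 0.0161), with 14 and 14 and 21 and 17 at 6 h, then 11 and 7 and 86 and 185 at 24 h. The truncated L1PA6 copy on chromosome 18 (12627076 to 12628869) differed by 2.19 (adjusted p = 0.0117), and the truncated L1PA4 copy on chromosome 7 (65185420 to 65187094) by 1.53 (adjusted p = 0.0345).

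Of the copies with a lower effect at 24 h, the truncated L1PA4 copy on chromosome 2 (169723779 to 169727875) differed by -3.50 (adjusted p = 0.00013) and the one on chromosome 11 (17360903 to 17364840) by -2.31 (adjusted p = 0.00537). The near full-length L1PA4 copy on chromosome 10 (95280731 to 95286852) differed by -4.12 (adjusted p = 0.0136), with 13 and 45 and 28 and 47 at 6 h, then 84 and 128 and 5 and 10 at 24 h. The near full-length L1PA4 copy on chromosome 18 (43374036 to 43380174), at 0 in both 5-FU 24 h libraries, differed by -7.72 (adjusted p = 0.0022), and the truncated L1PA3 copy on chromosome 6 (10984594 to 10987837), also at 0 there, by -9.48 (adjusted p = 0.0325).

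The other 3 copies had nearly all their DMSO 6 h counts in 1 replicate. The L1HS copy on chromosome 11 (78388818 to 78394847) differed by 11.96 (adjusted p = 0.0233), with 31 and 385 counts in the DMSO 6 h libraries. The L1HS copy on chromosome 7 (113416178 to 113422207) differed by 8.11 (adjusted p = 0.0297), with 206 and 0 there and 83 and 235 in the 5-FU 24 h libraries. The L1PA5 copy on chromosome 16 (22511231 to 22512758), one of the copies with the same consensus span, differed by 11.06 (adjusted p = 0.0418), with 0 and 222 there and 114 and 1 in the 5-FU 24 h libraries.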

How the results depend on the processing

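Of 73 calls on named copies, 59 kept their call and direction in every alternative that tested the copy. Of 9 calls on subfamily or length-class sums, 0 did. Named copies were largely chosen for a small p, while the sums were not chosen and had more alternatives. These shares therefore cannot be compared, and that of the named copies says little about other called copies. The cause was not tested for any change below, except that leaving out libraries or sums' copies by construction leaves fewer data.

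With the library size alone, 8 length classes were called after Nutlin and L1PA5 had -0.17; at 5-FU 12 h, 8 subfamilies and 14 classes were called, with near full-length L1HS at -0.55, truncated L1PA2 at -0.42 and truncated L1PA3 at -0.45. With DESeq2 size factors, 5 subfamilies and 8 classes were called at 12 h and 1 subfamily for DMSO against untreated. DESeq2 called 37 copies after Nutlin, 10 copies at 6 h, 6 subfamilies and 9 classes at 12 h, and 1 subfamily for DMSO against untreated. With no filter, 63 copies were called at 6 h, 63 for 24 h minus 6 h and 107 for DMSO against untreated. With the compared libraries alone, the counts were 13 copies at 6 h, 71 at 24 h and 7 for 24 h minus 6 h, and 7 subfamilies and 9 classes at 12 h. Without the most abundant copies, 0 subfamilies and 1 class were called after Nutlin. With near full-length from 6000 bases, 1 class was called at 24 h. With the TMM factors of the tested copies, an alternative chosen after seeing the data, 5 subfamilies and 7 classes were called at 12 h, all lower, and 1 subfamily for DMSO against untreated.

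Against the DMSO 6 h and 24 h groups, 8 subfamilies and 14 classes were called at 12 h, all lower. Near full-length L1HS then had -0.39, truncated L1PA2 -0.43, truncated L1PA3 -0.32, truncated L1PA5 -0.31, the L1HS copy on chromosome 13 -0.43, the L1PA7 copy on chromosome 11 (27703965 to 27710419) -0.79, and the L1HS copy on chromosome 11 -7.87, a fitted value with both 5-FU 12 h libraries at 0.

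Leaving out 1 library at a time gave 0 to 2 subfamilies and 1 to 6 classes after Nutlin, 1 to 5 copies at 6 h, 122 to 173 copies and 0 to 3 classes at 12 h, and 41 to 117 copies, 0 to 8 subfamilies and 0 to 14 classes at 24 h. It gave 5 to 29 copies and 0 to 8 subfamilies for 24 h minus 6 h, and 14 to 31 copies for DMSO against untreated. Near full-length L1PA4 ranged from -0.35 (without 5-FU replicate 2) to 0.50 (without replicate 1) at 24 h.

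The labels do not say whether same-numbered libraries belong together, and the main fit did not pair them. Same-numbered deviations correlated at -0.0083, -0.0040, -0.017 and 0.154 for Nutlin and for 5-FU at 6, 12 and 24 h. The last value was the highest over all pairs of 5-FU table groups (-0.112 to 0.154), so pairing at 24 h is not settled. With a replicate block 87, 6, 298 and 98 copies were called in the drug comparisons, in the same order. Of 82 single results called without the block, 78 stayed called. Depth limits single copies: 2340 of 63590 and 731 of 62143 copies had enough counts to be tested.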
